A study of Rattus norvegicus with 15 samples.

Results

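The glycolysis and hypoxia response genes described here are 10 of the 32552 annotated genes in the count files. They were set by a list of 10 Ensembl identifiers, each kept only where the files place it on the expected chromosome, and all 10 were kept. The list holds 7 genes of glucose uptake and glycolysis (Slc2a1, Hk2, Pfkfb3, Eno1, Pkm, Ldha and Gapdh) and 3 genes of the response to low oxygen (Hif1a, Vegfa and Adm). The files give identifiers without symbols, so the symbols are those of the list. All 10 also matched the RefSeq gene of the same symbol in chromosome and strand, and 6 of 10 matched its whole length within 10%. The whole-length ratio to RefSeq was 0.119 for Adm, 0.364 for Pfkfb3, 0.695 for Gapdh and 0.840 for Pkm. Measured from whichever RefSeq start of the gene fitted best, 9 of 10 were within 10%, and Gapdh was at 0.869.

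Bulk RNA sequencing was done on primary cortical astrocytes of Sprague Dawley rats 1 to 2 days old, labelled wild type, in 5 groups of 3 samples. Control wells were given sterile water. All wells of the remaining 4 groups were exposed to 100 µM H2O2 for 30 min, which causes oxidative stress. Of these, 1 group (H2O2) received no mitochondria, and 3 groups were treated 24 h later with either unmodified mitochondria, MitoCoat or MitoCoat-mRNA. Unmodified mitochondria are mitochondria-enriched fractions of rat placenta, MitoCoat is such a fraction coated with the lipids DOTAP and DOPE, and MitoCoat-mRNA is RNA taken from such fractions and encapsulated in the same lipids. RNA was collected 6 h after these treatments. None of the 5 groups was described as receiving the lipids alone. The mitochondria came from the same species as the astrocytes, so transcripts carried in with a preparation and transcripts made by the astrocytes cannot be told apart in the counts. The sample descriptions name mitochondria-enriched fractions as the source of the RNA, whereas the study's account is of astrocyte RNA, and the latter was assumed. The study calls the samples of a group biological replicates and does not say for the sequencing whether they came from separate cultures or animals. Each p-value sets a difference between groups against the spread between these samples, of which a part may be technical.

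Glycolysis splits glucose into pyruvate in the cytosol and yields ATP without oxygen, and lactate dehydrogenase then turns pyruvate into lactate. Astrocytes are known for a high rate of glycolysis and for releasing lactate that neurons can use. When oxygen is low, the transcription factor subunit encoded by Hif1a escapes degradation and, with its partner, binds short DNA elements with the core letters ACGTG or GCGTG near glycolytic genes and near genes such as Vegfa and Adm. HIF-1α is regulated mostly at the level of the protein, which RNA counts do not measure.

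All 10 genes were well covered. Total counts ranged from 35315654 to 46778663 per sample, and the lowest count of any of the 10 genes in any sample was 912 (Adm). Levels are given as CPM, each gene's count scaled to a common total per sample after TMM normalization over all 15 samples, and a gene is said to have risen or fallen only at a Benjamini-Hochberg adjusted p under 0.05 in edgeR's quasi-likelihood test, adjusted over all genes tested. The share of all counts that fell on the 10 genes was 0.682% ± 0.00486 in control, 0.873% ± 0.0224 after H2O2, 0.891% ± 0.0321 after unmodified mitochondria, 0.890% ± 0.0113 after MitoCoat and 0.885% ± 0.0112 after MitoCoat-mRNA (SD, n = 3 each). Mitochondrially encoded genes took 2.81% to 4.61% of the counts. Their share was 3.18% to 3.47% with unmodified mitochondria and 3.60% to 4.48% with MitoCoat. Both ranges lay within that of H2O2 alone (2.97% to 4.61%), beside 2.875% to 4.045% in control and 2.81% to 4.20% with MitoCoat-mRNA. The authors counted uniquely mapped reads, so reads that match a processed pseudogene as well as the gene would be lost, and the levels of Gapdh, Ldha, Eno1 and Pkm, which have such copies, are uncertain to that extent. Markers of astrocytes and of other cell types were not analysed here, because the table of symbols at hand matched 0 of the 32552 identifiers.

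H2O2 raised the lactate, glucose uptake and pyruvate kinase genes. Ldha, which encodes the lactate dehydrogenase A subunit, was 1.56-fold higher than in control, Slc2a1, which encodes the glucose transporter GLUT1, was 1.51-fold higher, and Pkm, which encodes the enzyme of the last step of glycolysis, was 1.35-fold higher. The other 4 glycolysis genes and the 3 hypoxia genes did not pass the test. In bulk RNA a change in the mix of cells and a change in the RNA per cell cannot be told apart. The comparison asks what oxidative stress did to the astrocytes, and 3 of the 10 genes were called, all higher, where 7.19% of the 15650 genes tested were called, 2.97% higher and 4.22% lower. The median log2 fold change was 0.27 over the 10 genes and 0.01 over all genes tested.

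Ldha (ENSRNOG00000013009) lies on chromosome 1 from 102900286 to 102909707 (Rnor6.0, plus strand, 8 merged exons). It had 809, 787 and 792 CPM in the 3 control samples and 1078, 1253 and 1364 CPM in the 3 H2O2 samples. Every H2O2 sample lay above every control sample. The log2 fold change was 0.64 (standard error 0.105, edgeR adjusted p = 0.0100), with a 95% interval from 0.40 to 0.88.

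Slc2a1 (ENSRNOG00000007284) lies on chromosome 5 from 138154673 to 138182897 (plus strand, 11 merged exons). Its control samples had 644, 739 and 806 CPM and its H2O2 samples 1071, 1006 and 1208 CPM, again without overlap. The log2 fold change was 0.60 (standard error 0.115, adjusted p = 0.0190). Pkm (ENSRNOG00000011329), on chromosome 8 from 64481172 to 64502722 (plus strand, 12 merged exons), had 1059, 1090 and 1117 CPM in control and 1339, 1495 and 1541 CPM after H2O2, without overlap. Its log2 fold change was 0.43 (standard error 0.0938, adjusted p = 0.0290). These 3 calls rested on few samples. Of the 6 fits without 1 sample, Pkm lost its call in 5 (adjusted p = 0.0544 without control replicate 1, 0.141 without control replicate 2, 0.1004 without control replicate 3, 0.0803 without H2O2 replicate 2 and 0.112 without H2O2 replicate 3). Slc2a1 lost it in 2 (0.0856 without control replicate 2 and 0.0719 without H2O2 replicate 3) and Ldha in 1 (0.0642 without control replicate 2). The log2 fold changes over the 6 fits without 1 sample ranged from 0.56 to 0.73 for Ldha, from 0.51 to 0.67 for Slc2a1 and from 0.39 to 0.49 for Pkm.

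The other 4 glycolysis genes did not pass the test after H2O2. Eno1 (ENSRNOG00000017895), the gene of enolase on chromosome 5 from 167288223 to 167299609, had 1362, 1342 and 1308 CPM in control and 1576, 1790 and 1556 CPM after H2O2 (log2 fold change 0.31, adjusted p = 0.104). Gapdh (ENSRNOG00000018630), the gene of a middle step of glycolysis that is often used as a reference, on chromosome 4 from 157676595 to 157679962, had 1756, 1673 and 1649 CPM in control and 1880, 2373 and 1933 CPM after H2O2 (log2 fold change 0.30, adjusted p = 0.173). Without H2O2 replicate 2, the highest at 2373 CPM, the log2 fold change of Gapdh was 0.18. Pfkfb3 (ENSRNOG00000018911), on chromosome 17 from 70684134 to 70713726, encodes the enzyme that makes fructose 2,6-bisphosphate, an activator of phosphofructokinase. It had 867, 997 and 1000 CPM in control and 1168, 1042 and 1146 CPM after H2O2 (log2 fold change 0.24, adjusted p = 0.197). In each of these 3 genes every H2O2 sample was above every control sample, and the unadjusted p was 0.0121 for Eno1, 0.0312 for Gapdh and 0.0396 for Pfkfb3, before adjustment over all genes tested. With DESeq2's Wald test, Eno1 was called on the 6 samples (adjusted p = 0.0285) and on all 15 samples (0.0140), where Pfkfb3 was called as well (0.0238), and edgeR's fit over all 15 samples called Eno1 (adjusted p = 0.0460). These 3 fits called 12.1%, 15.5% and 10.4% of all genes tested, in the same order. Hk2 (ENSRNOG00000006116), the gene of a hexokinase that starts glycolysis and binds the mitochondrial outer membrane, lies on chromosome 4 from 113559427 to 113610243. Its samples overlapped, with 49.6, 34.8 and 30.0 CPM in control and 42.7, 37.4 and 27.6 CPM after H2O2 (log2 fold change −0.07, adjusted p = 0.867).

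The 3 hypoxia genes had lower mean levels after H2O2, and none passed the test. Vegfa (ENSRNOG00000019598), which encodes vascular endothelial growth factor A and lies on chromosome 9 from 17340341 to 17355681, had 66.0, 67.0 and 69.7 CPM in control and 58.5, 57.8 and 58.0 CPM after H2O2. The 2 groups did not overlap, and the log2 fold change of −0.21 had an adjusted p = 0.148. Hif1a (ENSRNOG00000008292), on chromosome 6 from 96810907 to 96856052, had 125, 139 and 122 CPM in control and 122, 104 and 98.9 CPM after H2O2 (log2 fold change −0.24, adjusted p = 0.222). Adm (ENSRNOG00000027030), the gene of the vasodilator peptide adrenomedullin on chromosome 1 from 175445088 to 175447259, had 34.0, 27.1 and 27.4 CPM in control and 31.4, 29.5 and 22.4 CPM after H2O2 (log2 fold change −0.07, adjusted p = 0.819). In all, 6 of the 10 genes lay wholly above control after H2O2 and 1 wholly below, where this held for 13.2% and 14.5% of the genes tested.

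**Figure D1:**
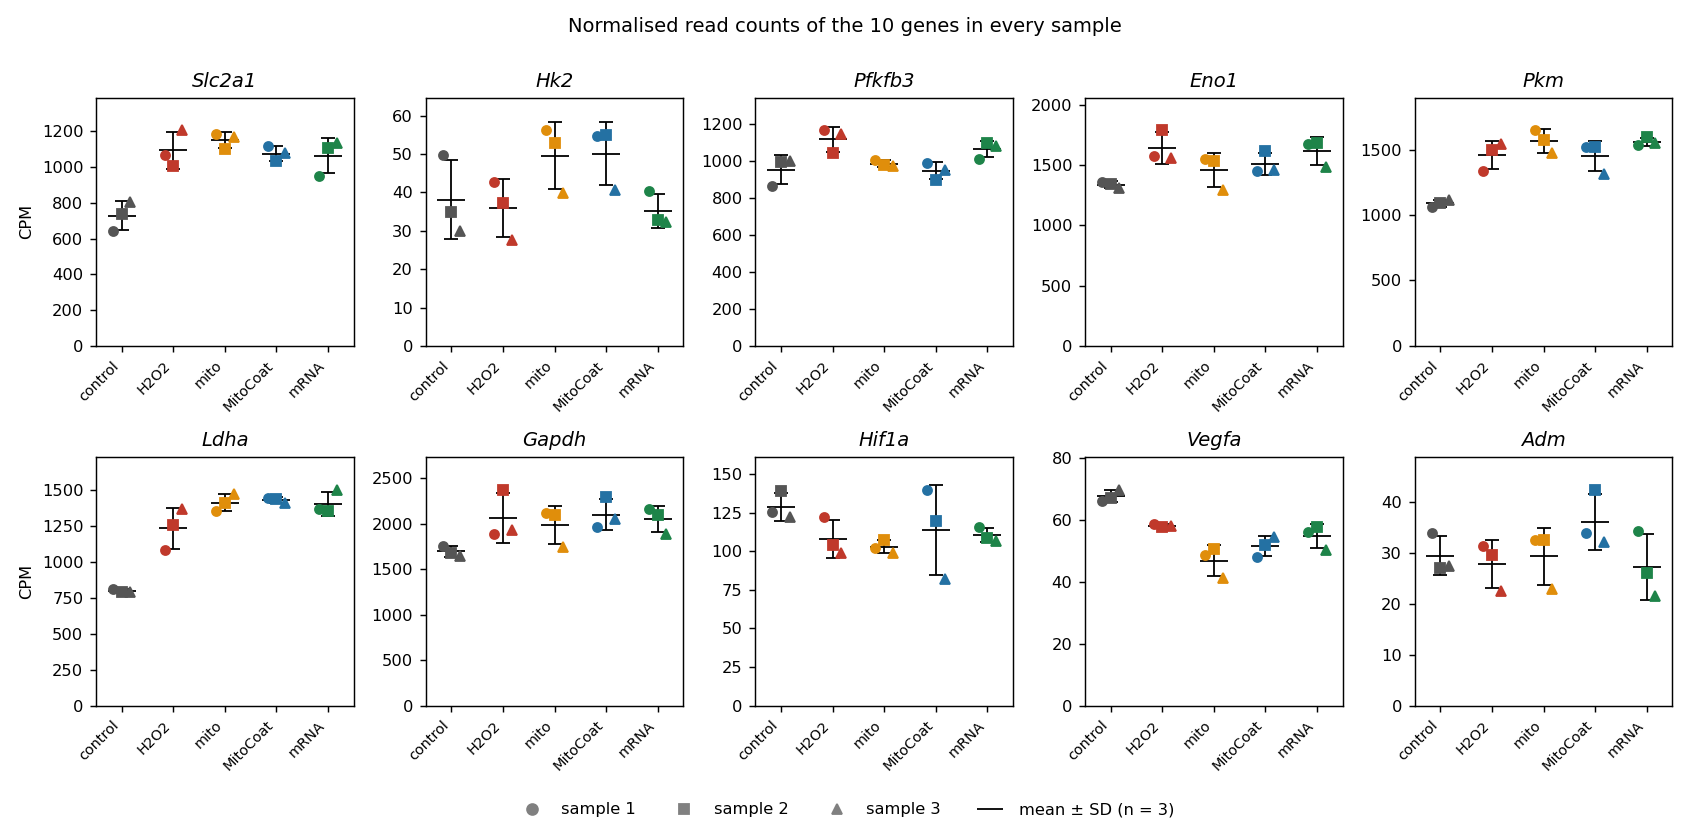
Levels of the 10 genes in CPM (vertical axes, each from 0) in the 3 samples of each group, with the mean and SD as black bars. Control samples of Ldha (787 to 809 CPM), Slc2a1 and Pkm sit below all 12 H2O2-exposed samples, and control samples of Vegfa sit above them.

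Over all 12 samples that had received H2O2, with or without a later treatment, 4 genes were fully separated from the 3 control samples. Ldha (1078 to 1501 CPM, median 1385), Slc2a1 (951 to 1208 CPM, median 1106) and Pkm (1316 to 1649 CPM, median 1527) were above every control sample. Vegfa (41.1 to 58.5 CPM, median 53.1) was below every control sample. Across all 16631 genes with a level, 6.4% were wholly higher and 7.83% wholly lower in the 12 samples.

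The bases before the start of these 4 genes are shown because the elements bound by hypoxia-inducible factors hold ACGTG or GCGTG, and the 4 genes differ in these letters. RefSeq, on the assembly GRCr8, gave windows from 250 bases before to 50 bases after a gene start for all 10 genes, with 2 windows each for Eno1 and Vegfa. Both motifs were searched on both strands, so a match on the opposite strand reads CACGT or CACGC, and CACGTG holds ACGTG on both strands and counts as 2 matches. Ldha had 6 matches in its window and Slc2a1 had 4, while Pkm had 0 and each of the 2 windows of Vegfa had 0. The sequences that follow are the 250 bases before the start, on the plus strand, at chr1:106507842-106508091 for Ldha, chr5:138002272-138002521 for Slc2a1, chr8:68953385-68953634 for Pkm and chr9:22452604-22452853 for Vegfa. Capitals mark the matches that lie wholly within them.
Ldha: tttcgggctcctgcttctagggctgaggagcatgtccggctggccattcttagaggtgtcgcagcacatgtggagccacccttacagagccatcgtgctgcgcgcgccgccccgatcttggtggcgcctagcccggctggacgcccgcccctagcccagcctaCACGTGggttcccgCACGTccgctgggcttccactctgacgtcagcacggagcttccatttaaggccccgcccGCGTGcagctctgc
Slc2a1: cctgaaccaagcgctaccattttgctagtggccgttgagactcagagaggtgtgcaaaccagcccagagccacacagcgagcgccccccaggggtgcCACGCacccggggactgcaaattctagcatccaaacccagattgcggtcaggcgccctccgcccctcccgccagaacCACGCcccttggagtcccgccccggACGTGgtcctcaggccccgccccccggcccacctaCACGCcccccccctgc
Pkm: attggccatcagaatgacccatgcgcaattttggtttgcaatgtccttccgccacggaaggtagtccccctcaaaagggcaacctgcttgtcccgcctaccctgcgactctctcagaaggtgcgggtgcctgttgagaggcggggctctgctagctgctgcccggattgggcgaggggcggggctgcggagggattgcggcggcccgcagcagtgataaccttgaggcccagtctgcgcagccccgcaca
Vegfa: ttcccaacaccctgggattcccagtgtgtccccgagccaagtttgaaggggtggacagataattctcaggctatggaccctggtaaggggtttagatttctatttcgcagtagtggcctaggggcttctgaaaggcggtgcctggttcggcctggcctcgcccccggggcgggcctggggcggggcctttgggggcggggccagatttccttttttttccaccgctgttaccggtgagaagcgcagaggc

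Either motif was found in 7 of the 12 windows, which belong to 6 of the 10 genes, and in 41.6% of all 33469 RefSeq windows of the same length (19.3% held ACGTG and 29.7% held GCGTG). Besides Ldha and Slc2a1, the genes with a match were Pfkfb3, Eno1, Gapdh and Hif1a, while Hk2 and Adm had none. The GC content of the windows of the 10 genes was 51.0% to 73.7%, against a median of 51.7% over all windows. A match is a stretch of letters and not a site shown to be bound, and elements outside these windows were not searched.

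After treatment with mitochondria or with encapsulated RNA, the genes that H2O2 had raised were still above control. Ldha was 1.77-fold above control after unmodified mitochondria, 1.78-fold after MitoCoat and 1.77-fold after MitoCoat-mRNA. Slc2a1 was 1.58-fold, 1.46-fold and 1.46-fold above control in the same order, and Pkm 1.44-fold, 1.32-fold and 1.44-fold. Vegfa fell, to 0.692, 0.755 and 0.812 of the control level. The 3 comparisons share their control samples with each other and with H2O2 against control, so they are not independent of one another.

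With unmodified mitochondria against control, 3 of the 10 genes were higher and 2 lower, where 22.5% of all genes tested were called (10.3% higher and 12.2% lower). The log2 fold changes of the higher genes were 0.83 for Ldha (adjusted p = 0.000148), 0.66 for Slc2a1 (0.00149) and 0.52 for Pkm (0.0021). Among the lower genes, Vegfa stood at −0.53 on the log2 scale (standard error 0.0938, adjusted p = 0.00384) and Hif1a at −0.32 (standard error 0.0810, adjusted p = 0.0209). The Hif1a samples had 102, 107.5 and 98.9 CPM, below all control samples. Its call did not hold when all 15 samples were fitted together (adjusted p = 0.121 with edgeR and 0.1002 with DESeq2), nor without control replicate 2 (0.0960) or unmodified mitochondria replicate 1 (0.0709).

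With MitoCoat against control, 3 genes were higher and 1 lower, where 24.1% of all genes tested were called (11.0% higher and 13.1% lower). The adjusted p was 0.00024 for Ldha, 0.00524 for Slc2a1, 0.0148 for Pkm and 0.00714 for Vegfa, whose log2 fold change was −0.40. Pkm was not called without control replicate 2 (adjusted p = 0.0660) or MitoCoat replicate 2 (0.0626), nor with the replicate number as a block (0.0558). Gapdh stood just outside the threshold (log2 fold change 0.30, adjusted p = 0.0516) and was called under 6 of the 14 alternatives.

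With MitoCoat-mRNA against control, 3 genes were higher and 1 lower, where 15.9% of all genes tested were called (7.18% higher and 8.72% lower). The log2 fold changes were 0.82 for Ldha (adjusted p = 0.00052), 0.55 for Slc2a1 (0.0113), 0.52 for Pkm (0.00249) and −0.30 for Vegfa (0.0326). Samples with the same number deviated together in these 2 groups, and with the replicate number as a block 8 of the 10 genes were called, where 36.9% of all genes tested were. Eno1 (log2 fold change 0.27, adjusted p = 0.000928), Gapdh (0.28, 0.000827) and Pfkfb3 (0.17, 0.0212) were then higher as well, and Hif1a (−0.21, 0.00778) was lower. Without the block, DESeq2 on the 6 samples, which called 19.0% of all genes, also called Eno1 (adjusted p = 0.0134) and Gapdh (0.0139). DESeq2 on all 15 samples, which called 18.6%, called Eno1 (0.0239), and edgeR without MitoCoat-mRNA replicate 3 called Eno1 (0.0361) and Gapdh (0.0407). In edgeR without the block, Vegfa lost its call in 5 of the 6 fits without 1 sample (adjusted p from 0.0595 to 0.104), and without MitoCoat-mRNA replicate 2 the called genes were Pkm and Ldha only.

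**Figure D2:**
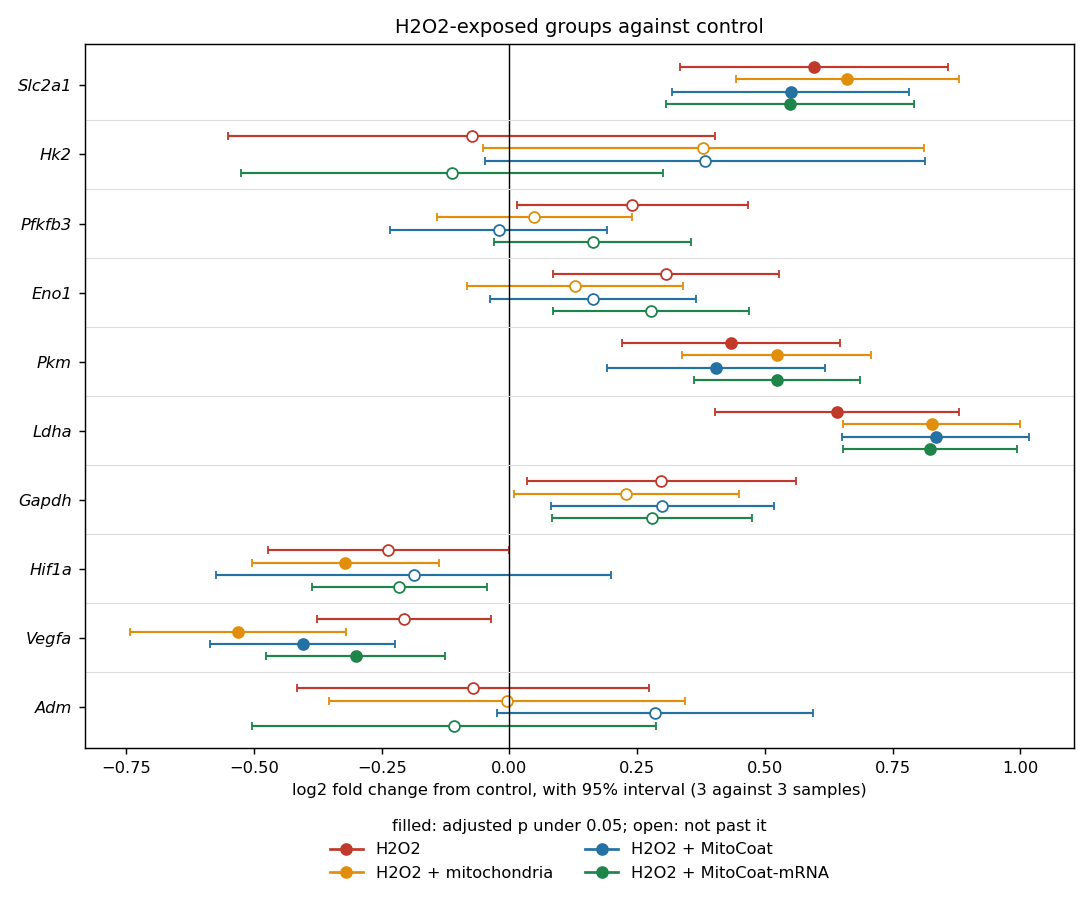
Log2 fold change from control (horizontal axis) of each gene in the 4 H2O2-exposed groups, with the 95% interval. Filled points have an adjusted p under 0.05. Ldha (0.64 to 0.83), Slc2a1 and Pkm lie to the right of 0 in all 4 groups, and Vegfa lies to the left.

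In edgeR on the 6 samples without the replicate block, 0 of the 10 genes were called against H2O2 alone with any of the 3 treatments. These comparisons ask whether the treatments moved the genes back towards control or further from it. The log2 fold change of Ldha was 0.19 after unmodified mitochondria, 0.21 after MitoCoat and 0.19 after MitoCoat-mRNA, which is away from the control level. These values lean on 1 shared sample, since without H2O2 replicate 1, the lowest at 1078 CPM, they were 0.11, 0.12 and 0.10. Those of Slc2a1 were 0.07, −0.03 and −0.04, and those of Pkm 0.09, −0.02 and 0.09. The 3 comparisons share the H2O2 samples.

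With unmodified mitochondria, 3.59% of 15613 genes were called, and Vegfa and Hk2, 2 of the 10, reached an unadjusted p under 0.05, as did 13.8% of all genes tested. Vegfa had 48.5, 50.5 and 41.1 CPM, below all 3 H2O2 samples (57.8 to 58.5 CPM). Its log2 fold change was −0.32 (standard error 0.103, adjusted p = 0.154), and fits over all 15 samples called it lower (adjusted p = 0.0133 with DESeq2 and 0.0470 with edgeR), where 6.71% and 4.64% of all genes were called. Pfkfb3 (1007, 977 and 976 CPM) and Eno1 (1549, 1536 and 1297 CPM) were likewise below every H2O2 sample, with log2 fold changes of −0.19 and −0.17 (adjusted p = 0.371 and 0.560). The value of Eno1 leaned on 1 sample, since without unmodified mitochondria replicate 3 it was −0.086. Groups were separated in the lower direction for 9.02% of the genes tested.

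Hk2 had 56.2, 52.8 and 39.8 CPM with unmodified mitochondria against 42.7, 37.4 and 27.6 CPM after H2O2. The ranges overlapped, but each treated sample exceeded the H2O2 sample of the same number, 1.32-fold, 1.41-fold and 1.44-fold. Its log2 fold change was 0.46 (standard error 0.176, adjusted p = 0.257). Same-number samples deviated together in these 2 groups, and with the replicate number as a block the value was 0.47 (standard error 0.105, adjusted p = 0.0038), in a fit that called 7.96% of all genes tested. With MitoCoat, Hk2 had 54.6, 55.0 and 40.5 CPM (log2 fold change 0.47, adjusted p = 0.240). These were 1.28-fold, 1.47-fold and 1.47-fold the H2O2 samples of the same number. The block called Hk2 there too (adjusted p = 0.0175, 5.88% of all genes), though the numbers do not pair these groups by the rule used. In fits without 1 sample, the log2 fold change of Hk2 ran from 0.31 to 0.61 with either preparation. With MitoCoat-mRNA, Hk2 had 40.3, 32.8 and 32.4 CPM (log2 fold change −0.03). Genes without counts in control and H2O2 samples were also summed, as a description. Their counts in these 2 groups and in the 2 groups given mitochondria decided the choice, and those with MitoCoat-mRNA did not. High sums with mitochondria and a low sum with MitoCoat-mRNA were therefore favoured in advance. The 55 genes with 0 counts in all control and H2O2 samples, and counts in all 3 samples given unmodified mitochondria or all 3 given MitoCoat, summed to 19.1 ± 10.5 CPM with unmodified mitochondria, 55.9 ± 36.2 CPM with MitoCoat and 0.496 ± 0.0773 CPM with MitoCoat-mRNA (SD, n = 3 each). These sums were scaled by each sample's total counts without TMM factors, unlike the CPM of single genes. The sums of the first 2 groups overlapped (6.99 to 26.1 and 16.3 to 87.5 CPM), and the mean level of Hk2 was 49.6, 50.1 and 35.1 CPM in the same order. The part that transcripts of the preparation have in the level of Hk2 was not tested.

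With MitoCoat, 3.05% of 15724 genes were called, and Hk2, Pfkfb3 and Adm, 3 of the 10, reached an unadjusted p under 0.05, as did 14.9% of all genes tested. Pfkfb3 had 989, 899 and 954.5 CPM, below every H2O2 sample (1042 to 1168 CPM). Its log2 fold change of −0.25 had an adjusted p = 0.254, and it was called lower in DESeq2's fit over all 15 samples (adjusted p = 0.0139), which called 9.6% of all genes. Adm had 33.9, 42.4 and 32.1 CPM, above every H2O2 sample (22.4 to 31.4 CPM), and its log2 fold change was 0.37 (standard error 0.157, adjusted p = 0.308). In fits without 1 sample this value ran from 0.23 to 0.47. Ldha (1444, 1439 and 1407 CPM) was also above and Vegfa (48.0, 51.8 and 54.5 CPM) also below all H2O2 samples. Full separation was found for 11.2% of the genes tested in the higher and 9.46% in the lower direction, against 2 and 2 of the 10 genes. Hif1a was the most variable of the 10 genes within this group, at 140, 119 and 81.9 CPM.

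With MitoCoat-mRNA, 0% of 15506 genes were called, and the smallest adjusted p of the 10 genes was 0.9996 in edgeR. None of the 10 had an unadjusted p under 0.05, which 463 genes (2.99%) had in all, and DESeq2's Wald test and the replicate block called no gene at all. The log2 fold changes ran from −0.09 (Vegfa) to 0.19 (Ldha), and each 95% interval included no change. That of Adm was the widest, from 0.733-fold to 1.303-fold, that of Ldha ran from 0.971-fold to 1.33-fold and that of Pfkfb3 from 0.830-fold to 1.09-fold. Vegfa, at 56.1, 57.5 and 50.2 CPM, lay just below all H2O2 samples, and 4.5% of genes did so. The lowest H2O2 sample was at 57.8 CPM, a gap smaller than the counting error of either group (1.135 and 1.23 CPM). The H2O2 samples of Vegfa had an SD of 0.378 CPM, below their counting error, which eased full separation from them with each treatment.

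MitoCoat and unmodified mitochondria were compared with each other to ask what the lipid coat changed. The study names the same 2 doses for both preparations, scaled to the well, and does not say which one the sequenced wells received. A difference in dose and an effect of the coat therefore cannot be told apart. In edgeR, 0% of 15731 genes were called, and 779 (4.95%) had an unadjusted p under 0.05, none of them among the 10. By the pairing rule given below, the replicate numbers pair these groups. With the block 5 genes (0.0318%) were called, as were 5 genes (0.0849%) by DESeq2 on the 6 samples, none of the 10 in either. The 2 groups overlapped for all 10 genes, where 10.9% of all genes did not. The log2 fold changes ran from −0.11 for Pkm to 0.30 for Adm (standard error 0.154, adjusted p = 0.889). For Hk2 the difference was 0.01, with an interval of −0.33 to 0.35. The intervals differed in width between genes. That of Pkm ran from 0.809-fold to 1.06-fold, that of Slc2a1 from 0.826-fold to 1.05-fold and that of Adm from 0.969-fold to 1.56-fold.

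**Figure D3:**
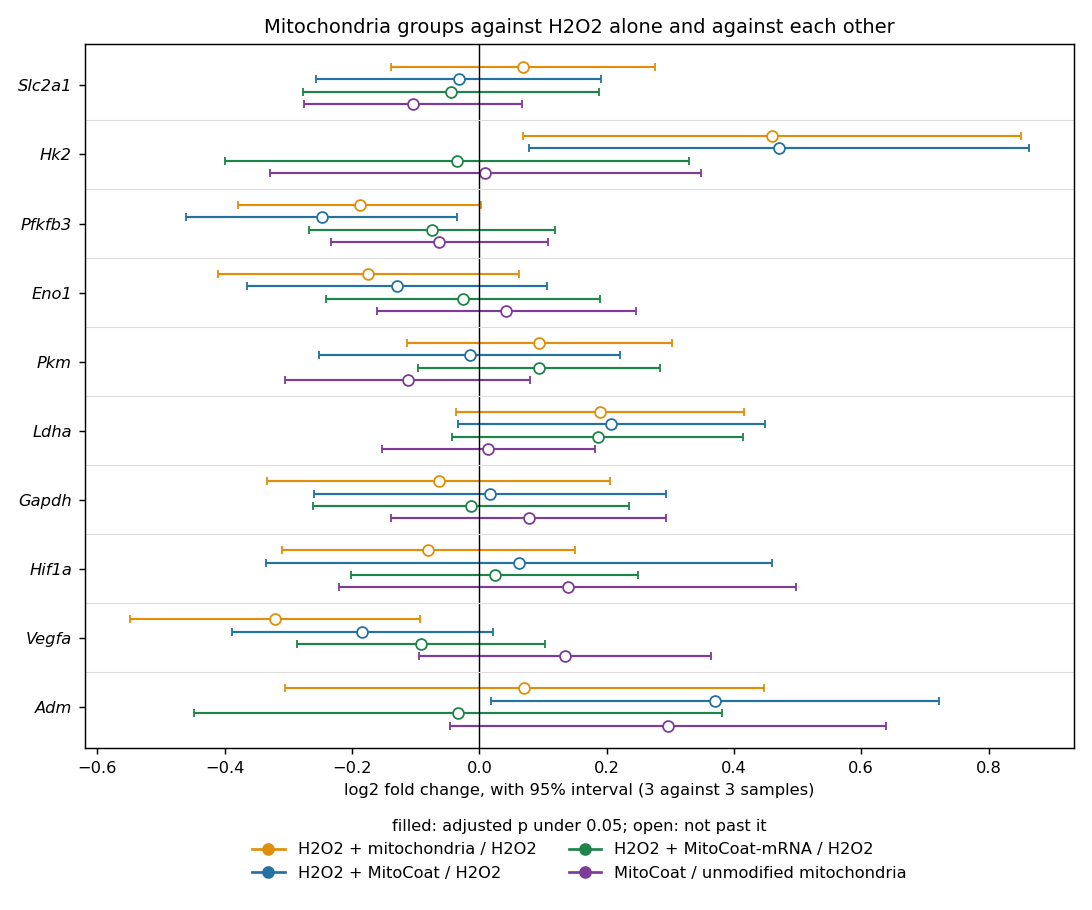
Log2 fold change (horizontal axis) of each gene for the 3 treatments against H2O2 and for MitoCoat against unmodified mitochondria, with the 95% interval. All points are open, since none has an adjusted p under 0.05. Hk2 stands at 0.46 and 0.47 with the mitochondria preparations and at −0.03 with MitoCoat-mRNA.

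Summed over the 7 glycolysis genes, the level was 6637 ± 81.0 CPM in control, 8642 ± 437 CPM after H2O2, 8608 ± 386 CPM with unmodified mitochondria, 8564 ± 277 CPM with MitoCoat and 8790 ± 155 CPM with MitoCoat-mRNA (SD, n = 3 each). The 4 exposed groups overlapped with each other and lay above control. The sum of the 3 hypoxia genes was 225.6 ± 6.93 CPM in control, 194 ± 16.6 CPM after H2O2, 179 ± 14.4 CPM with unmodified mitochondria, 201 ± 28.8 CPM with MitoCoat and 192 ± 13.7 CPM with MitoCoat-mRNA.

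Levels of different genes were compared per kilobase of exon, as RPKM, which divides CPM by the exon length that the authors' counting program reports. Gapdh had the highest level in each group (1689 ± 56.3 RPKM in control) and Hk2 the lowest (7.02 ± 1.89 RPKM in control), and Gapdh did not overlap with the next gene in any group. Below Gapdh, control samples had Eno1 at 707 ± 14.4 RPKM, then Pkm at 509 ± 13.7 and Ldha at 497 ± 7.10 RPKM, which overlapped. After H2O2, Ldha stood at 770 ± 90.3 RPKM and overlapped with both Eno1 and Pkm. With unmodified mitochondria (882 ± 38.0 RPKM) and with MitoCoat (894 ± 12.6 RPKM) it was above Eno1 without overlap, and with MitoCoat-mRNA (878 ± 52.3 RPKM) it overlapped with Eno1. The 3 hypoxia genes were at 13.2 to 32.3 RPKM in group means.

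**Figure D4:**
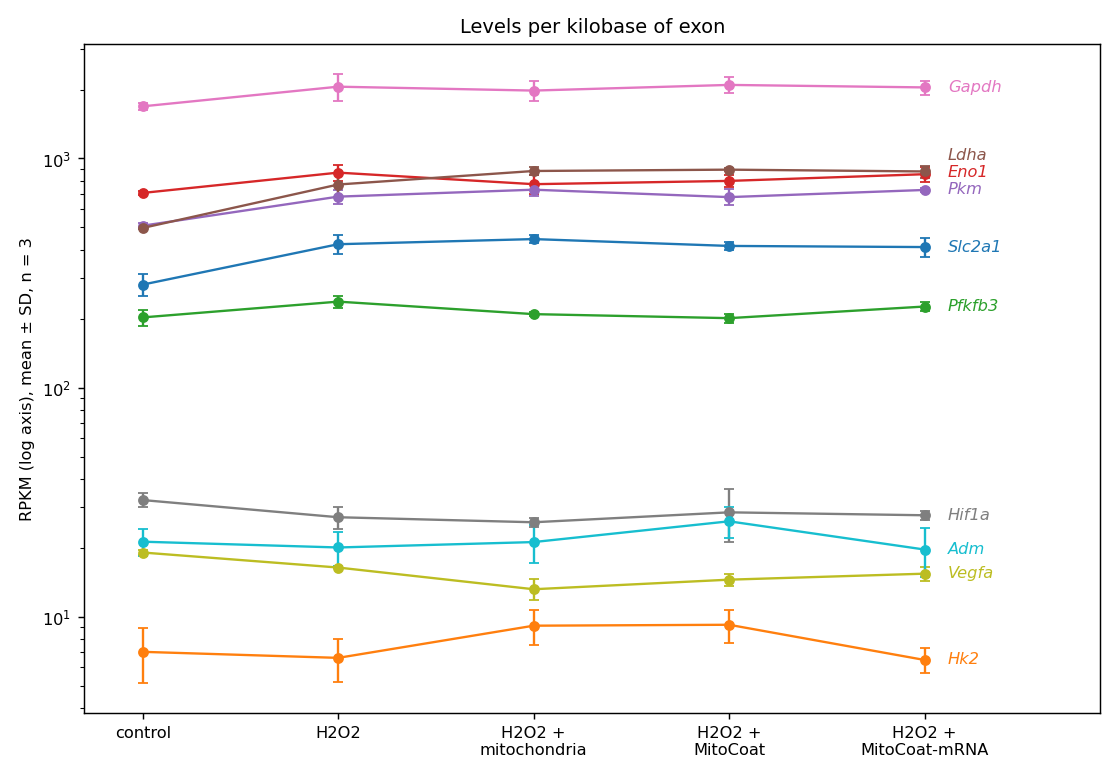
Mean RPKM (vertical log axis) of the 10 genes in the 5 groups, with the SD over 3 samples. Ldha moves from 497 RPKM in control, level with Pkm, to 882 RPKM with unmodified mitochondria, above Eno1.

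The 10 genes did not vary as 1 block across the 15 samples. On log2 CPM, Pkm and Ldha had a Pearson correlation of 0.92, Slc2a1 and Ldha of 0.89 and Slc2a1 and Pkm of 0.89 across the 15 samples, and these are the 3 genes that were higher in every exposed sample. After subtraction of the group means these fell to 0.37, 0.28 and 0.29. Eno1 and Gapdh, which both encode enzymes of the second phase of glycolysis, correlated at 0.89 and at 0.96 within groups. Hk2 and Adm correlated at 0.79 and at 0.84 within groups, and Slc2a1 and Pfkfb3 at 0.50 and 0.83. Vegfa ran opposite to Ldha (−0.84, and −0.46 within groups). These are descriptions over samples that share a normalization and, for some groups, a replicate number.

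**Figure D5:**
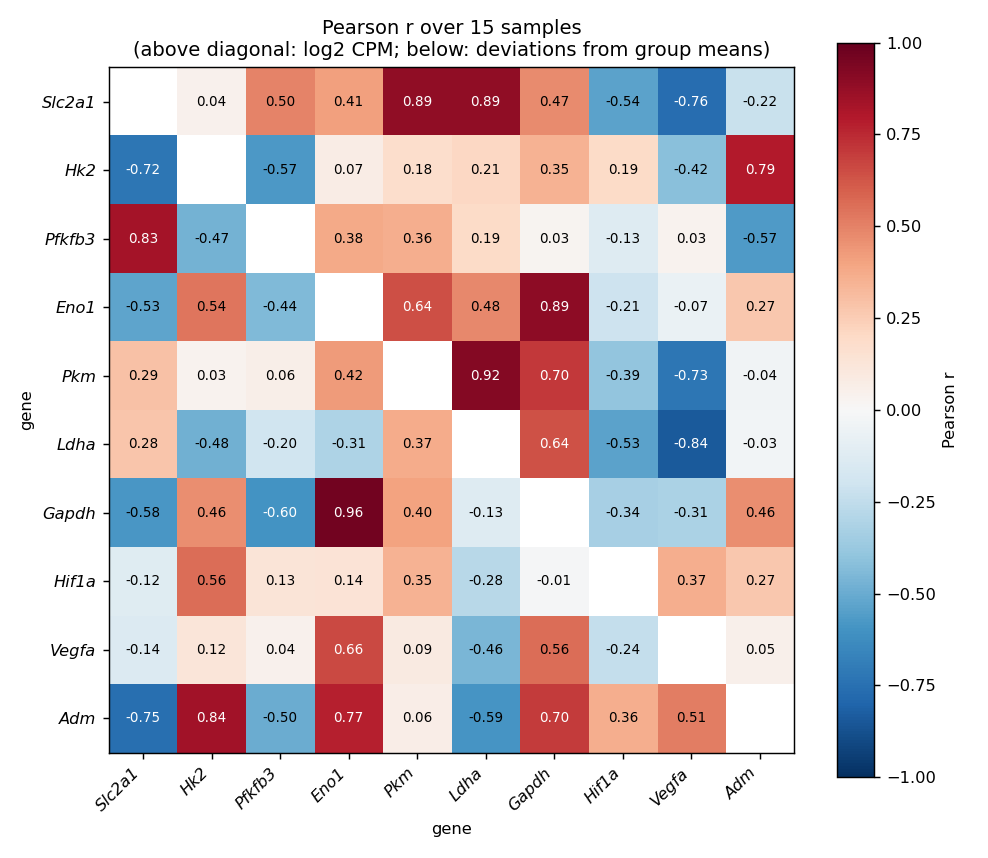
Pearson correlation of each pair of genes over the 15 samples, from log2 CPM above the diagonal and from deviations from the group means below it. Pkm and Ldha are at 0.92 above and 0.37 below the diagonal, while Eno1 and Gapdh are at 0.89 and 0.96.

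Among 13288 other genes with a mean of at least 1 CPM, the 2 whose pattern over the 15 samples was most like that of Ldha were ENSRNOG00000001414 (chromosome 12 from 22641104 to 22651482, Pearson correlation 0.99) and ENSRNOG00000009513 (chromosome 4 from 61706864 to 61720956, correlation 0.98). Mean levels of the first were 109 CPM in control, 771 CPM after H2O2, 1270 CPM with unmodified mitochondria, 1328 CPM with MitoCoat and 1013 CPM with MitoCoat-mRNA. Those of the second were 156, 410, 479, 484 and 450 CPM in the same order. As ratios to control, the changes of these 2 genes were larger than that of Ldha, whose means were 796 ± 11.4, 1232 ± 144.5, 1411 ± 60.9, 1430 ± 20.1 and 1404 ± 83.6 CPM (SD, n = 3 each).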

How the data were processed

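Bulk RNA sequencing of 15 samples in 5 groups of 3 was analysed from the deposited counts. The authors made these raw, not normalized counts of uniquely mapped reads per gene with featureCounts (Subread 1.5.2), after adapter trimming (Trimmomatic 0.36) and alignment to Rnor6.0 (STAR 2.5.2b). The study's methods say that strand was used where it applied, without giving the setting for these libraries. A further file, identical to that of 1 sample, was not used.

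In R 4.3.3, edgeR 4.0.16 was applied to the 6 samples of each comparison (filterByExpr, TMM factors, glmQLFit and glmQLFTest, two-sided), with Benjamini-Hochberg adjustment over all genes tested. The design, the named genes and the alternatives were written down before the fits, but the 10 genes and the lists were chosen with earlier results of these data known. The named genes were the 10 genes and the 2 other genes most like the gene with the smallest adjusted p in H2O2 against control. Other pathway genes and cell type markers had also been listed, and are not analysed here because 0 of 32552 identifiers could be paired with symbols. Protein sequences were not used here. Log2 CPM used a prior count of 2. Intervals (95%) use the standard error that the F statistic implies. All 10 genes passed the filter in each comparison.

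Alternatives were DESeq2 1.42.0 on the 6 or on all 15 samples, edgeR on all 15 samples, RLE size factors, other low-count filters (1 or more counts in total, 10 or more in every sample), removal of mitochondrially encoded genes, the replicate number as a block, and each sample left out in turn. The study says that the sequenced samples of each group were picked at random, so same numbers need not mark samples that belong together. Replicate numbers of the sample titles were taken to pair 2 groups where all 3 same-number correlations of deviations from the group means exceeded 0.1. This held for unmodified mitochondria against H2O2 (0.219 to 0.264), MitoCoat-mRNA against H2O2 (0.109 to 0.326), MitoCoat against unmodified mitochondria (0.173 to 0.219) and MitoCoat-mRNA against control (0.114 to 0.404). The rule thus paired MitoCoat-mRNA with control and with H2O2, but not H2O2 with control. Correlations between samples of different numbers were not compared. The variance between replicates, averaged over all genes, was 10.6 to 59.7 times the counting error over 15 pairs, so no replicate was a copy of another in its group. The fit of H2O2 against control was tested on simulated counts. The planted changes were larger than any found for the 10 genes, so the test does not bear on changes of their size. Python 3.11.15 with matplotlib 3.10.9 made the figures.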

Additional observations from a re-analysis of the deposited data

How the results depend on the processing

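Of 1120 values of the 10 genes in 8 comparisons under the alternatives, 1018 kept their direction and their side of the threshold, 28 gained a call, 21 lost one (18 of them in fits without 1 sample) and 53 changed sign. With DESeq2 on all 15 samples the called genes were 5 for H2O2 against control (15.5% of all genes, against 7.19% in edgeR on the 6 samples). They were 1 for unmodified mitochondria against H2O2 (Vegfa, 6.71% against 3.59%) and 1 for MitoCoat against H2O2 (Pfkfb3, 9.6% against 3.05%). Against control they were 4 for unmodified mitochondria (Hif1a lost, 22.5% of all genes), 5 for MitoCoat (Gapdh gained, 27.7%) and 5 for MitoCoat-mRNA (Eno1 gained, 18.6%). They were 0 in the other 2 comparisons (0% of all genes). With edgeR on all 15 samples they were 1 for unmodified mitochondria against H2O2 (Vegfa, 4.64% of all genes). Against control they were 4 for H2O2 (Eno1 gained, 10.4% of all genes), 4 for unmodified mitochondria (Hif1a lost, 21.7%), 5 for MitoCoat (Gapdh gained, 27.0%) and 4 for MitoCoat-mRNA (15.4%). They were 0 in the other 3 comparisons (5.44% of all genes for MitoCoat against H2O2 and 0% in the other 2). With the replicate block they were 8 for MitoCoat-mRNA against control (36.9% of all genes, against 15.9% without it) and 1 for unmodified mitochondria against H2O2 (Hk2, 7.96% against 3.59%), whose numbers pair the samples by the rule used. They were 1 for MitoCoat against H2O2 (Hk2, adjusted p = 0.0175; 5.88% of all genes), where the numbers do not pair the samples by the rule used (correlations of −0.0637 to 0.216). There and in the other comparisons without pairing (0.0731 to 0.322 for H2O2, 0.0914 to 0.235 for unmodified mitochondria and 0.0159 to 0.0750 for MitoCoat, each against control), the block also called Hk2 for unmodified mitochondria against control (adjusted p = 0.0136) and lost Pkm for MitoCoat against control (adjusted p = 0.0558). In the other 2 paired comparisons it changed no call. Without 1 sample, the called genes ranged from 0 to 3 for H2O2 against control (2.34% to 7.31% of all genes) and from 2 to 5 for MitoCoat-mRNA against control (7.82% to 17.4%), both lowest in all genes without control replicate 2. The share of all genes called was 1.59% to 2.78% for unmodified mitochondria against H2O2 (lowest without unmodified mitochondria replicate 1), 1.24% to 2.65% for MitoCoat against H2O2 (lowest without MitoCoat replicate 2), 13.3% to 23.6% for unmodified mitochondria against control (lowest without unmodified mitochondria replicate 2) and 13.3% to 24.1% for MitoCoat against control (lowest without MitoCoat replicate 2). Why a call changed under any of these was not tested. Counting error was at most 3.31% of a level of the 10 genes in 1 sample. The SD over 3 samples was below it in 1 of 50 combinations of gene and group, Vegfa after H2O2 (SD 0.378 CPM, counting error 1.23 CPM).

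All 53 changes of sign were in fits without 1 sample, in 26 results that were not called and had a log2 fold change of at most 0.19 in size, and the values that changed sign had an adjusted p of 0.404 or above. The log2 fold changes without 1 sample are given for these 26 results. For H2O2 against control they ran from −0.17 to 0.058 for Adm and −0.22 to 0.16 for Hk2. For MitoCoat-mRNA against H2O2 they ran from −0.23 to 0.12 for Adm, −0.064 to 0.042 for Eno1, −0.071 to 0.0999 for Gapdh, −0.038 to 0.13 for Hif1a, −0.19 to 0.11 for Hk2 and −0.10 to 0.032 for Slc2a1. For MitoCoat-mRNA against control they ran from −0.31 to 0.044 for Adm and −0.26 to 0.12 for Hk2. For unmodified mitochondria against H2O2 they ran from −0.056 to 0.23 for Adm, −0.11 to 0.056 for Gapdh and −0.14 to 0.028 for Hif1a. For unmodified mitochondria against control they ran from −0.090 to 0.15 for Adm and −0.017 to 0.084 for Pfkfb3. For MitoCoat against unmodified mitochondria they ran from −0.031 to 0.083 for Eno1, −0.0013 to 0.13 for Gapdh, −0.035 to 0.34 for Hif1a, −0.12 to 0.15 for Hk2 and −0.018 to 0.052 for Ldha. For MitoCoat against H2O2 they ran from −0.053 to 0.14 for Gapdh, −0.12 to 0.25 for Hif1a, −0.075 to 0.044 for Pkm and −0.085 to 0.037 for Slc2a1. For MitoCoat against control they ran from −0.37 to 0.0035 for Hif1a and −0.087 to 0.020 for Pfkfb3.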
